A study of Mus musculus with 16 samples.

Results

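The genes described here are the 3 retinoic acid receptors Rara, Rarb and Rarg, the 3 retinoid X receptors Rxra, Rxrb and Rxrg, and the corepressor genes Ncor1 and Nrip1. They were taken by symbol, as the receptors that the drug of the study acts on, their dimer partners and a pair of genes for corepressors. The 8 genes are among 57180 in the count tables, and all 8 were among the 17276 with enough counts to be tested. The measured material was poly(A) RNA of whole lungs from male mouse fetuses at E14.5. The 16 libraries form 4 groups of 4: C57BL/6J (B6) and A/J fetuses, each from dams that received BMS493 at 3.75 µg per g per day by mouth or corn oil without the drug, starting at E9.5 and ending at E14.5. BMS493 acts on the 3 retinoic acid receptors alike as an inverse agonist, lowering their activity below that of the empty receptor; both strains are inbred. The comparison of treated with control lungs asks which transcripts changed under the drug in each strain. Dosing the dam exposes the whole conceptus, so the lung was not treated on its own. Since litters are not named in the labels, p-values measure the spread between these samples, some of which may share a dam.

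Retinoic acid receptors (RARs) bind DNA as dimers with retinoid X receptors (RXRs), at paired copies of a short half-site. Without ligand the dimer holds a corepressor complex with a histone deacetylase, and retinoic acid exchanges that complex for coactivators. An inverse agonist such as BMS493 strengthens the hold on corepressors. In the embryonic lung, retinoic acid signalling acts early, when the lung bud forms, and in the mesenchyme and airway smooth muscle. Rarb is a classical target of the receptors it belongs to, through a response element just before its start site.

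That element is shown because Rarb had the largest change of the 8 genes. RefSeq promoter windows of the GRCm38.p6 assembly were available for all 8 genes, 17 windows in all, with 250 bases before and 50 after each start. They were searched on both strands for any of 4 half-sites (AGGTCA or its variant AGTTCA, and further GGGTCA or its variant GGTTCA), repeated in the same direction with 5 bases between them (DR5). The Rarb bases before the start, chr14:16575477-16575726 on the minus strand, follow with the pair in capitals.
Rarb: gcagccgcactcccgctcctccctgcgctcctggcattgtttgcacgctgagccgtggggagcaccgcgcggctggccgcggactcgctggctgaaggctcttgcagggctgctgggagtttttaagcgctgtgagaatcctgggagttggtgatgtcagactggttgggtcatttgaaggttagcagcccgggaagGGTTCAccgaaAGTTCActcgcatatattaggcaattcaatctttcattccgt
The pair, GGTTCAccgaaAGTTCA, runs from 53 to 37 bases before the start. It was the single DR5 match in the 17 windows, and 32 of 32851 mouse promoter windows (0.0974%) held one. Repeats with 1 base (DR1, in 0.222% of all windows) or 2 bases (DR2, in 0.268%) between the half-sites were found in none of the 17. At least 1 half-site stood in 9 of the 17 windows, the Rarb window included, and in 43.7% of all windows. Nrip1, the other member with a called change, is shown for contrast with its 3 unpaired half-sites in capitals (chr16:76373828-76374077, minus strand).
Nrip1: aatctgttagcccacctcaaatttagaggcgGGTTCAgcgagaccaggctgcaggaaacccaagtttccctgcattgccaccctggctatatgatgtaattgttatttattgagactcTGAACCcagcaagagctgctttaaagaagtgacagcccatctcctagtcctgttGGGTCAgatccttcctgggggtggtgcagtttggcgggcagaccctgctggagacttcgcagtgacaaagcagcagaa
A match is a run of letters in these windows, not a bound site, and elements farther from a start were outside them. The DR5 matches belonged to 31 genes, of which 8 were tested. The motif was chosen with the change of Rarb known, so Rarb is not counted. Of the other 7 tested genes with a match, 1 was called lower with BMS493 in each strain (adjusted p under 0.05), Tnfsf13b, which encodes a survival factor for B cells, beside 0.347% of all tested genes in B6 and 0.423% in A/J. The median log2 fold change of those 7 genes was -0.0007 in B6 and 0.04 in A/J. The log2 fold change of Tnfsf13b was -1.64 (SE 0.32, adjusted p = 0.0210) in B6 and -2.39 (SE 0.30, adjusted p = 0.000123) in A/J.

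Between 15207539 and 24146224 counts were assigned to genes per library. Defining markers of lung epithelium (6 of 6) and lung mesenchyme (5 of 5) had counts in all 16 libraries, while those of thymus were near 0, with Cd3e at 0 throughout. Single libraries stood apart in their marker levels. In B6 BMS493 replicate 3 the collagen gene Col1a1 was at 5613 CPM (counts relative to the scaled library total), against 2554 to 2840 in the other 3 of that group, while the other 4 mesenchyme markers (Foxf1, Tbx4, Tbx5 and Pdgfra) summed to 693 CPM, against 802 to 821. In B6 BMS493 replicate 2 the epithelium markers summed to 1965 CPM, against 990.4 to 1434; without the surfactant gene Sftpc the sum was 1097 CPM, against 793 to 845. In A/J control replicate 4 Col1a1 was at 1406 CPM, against 1933 to 2102 in its group, and the other 4 mesenchyme markers summed to 825 CPM, against 866 to 941. The BMS493 effects of the 8 genes are given with and without these 3 libraries. Unlike those of thymus, markers of some other tissues were not near 0. Heart markers summed to between 6.98 CPM (A/J control replicate 4) and 40.1 CPM (B6 BMS493 replicate 3). Liver markers reached 12.6 CPM in B6 control replicate 1, against 1.51 to 3.22 CPM in the other B6 controls. Cartilage markers summed to 86.0 to 176.5 CPM. The part of adjoining tissue in the values of the 8 genes was not tested.

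Per kilobase of annotated exon, Rxra was the most abundant of the 8 genes in every group and Rxrg the least. The length is the union of exons over all transcripts, and the order among the upper genes depends on it. It was 5462 bases for Rxra, 12811 for Ncor1 and 3973 for Rxrb. Their longest transcripts have 4905, 9037 and 2627 bases. Levels per longest transcript were not computed. CPM per kb in B6 control lungs had means of 28.9 for Rxra, 22.7 for Ncor1, 20.3 for Rxrb, 18.3 for Rarg, 15.1 for Rara, 7.54 for Nrip1, 1.59 for Rarb and 0.255 for Rxrg. The order of the group means was the same in all 4 groups. Some neighbours in it did not separate: the libraries of Rxrb and Rarg overlapped in both control groups, those of Ncor1 and Rxrb in B6 BMS493 and A/J control lungs, and those of Rarg and Rara in all groups except B6 controls. Nrip1, Rarb and Rxrg were separated from their neighbours in each group. The count used here leaves out many reads on Rarb exons, as given with its values.

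**Figure D1:**
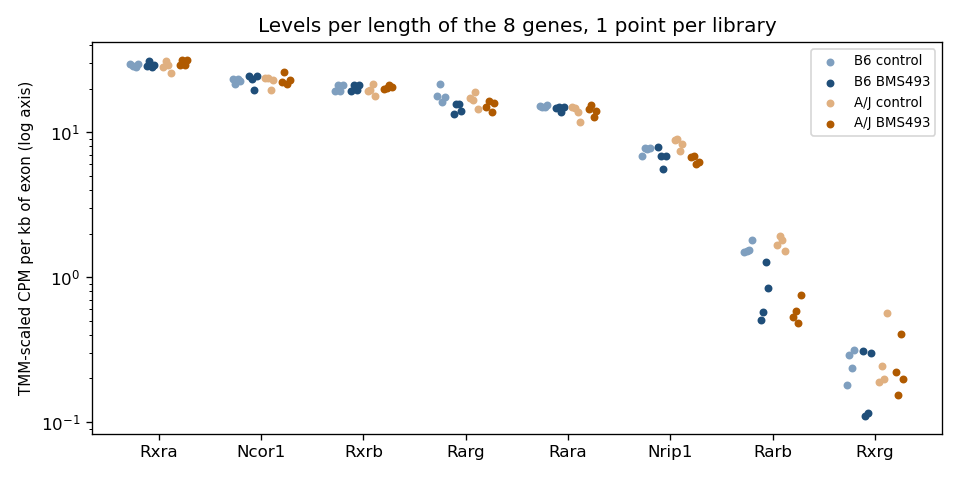
Levels per length of the 8 genes (vertical log axis, TMM-scaled CPM per kb of annotated exon), 1 point per library, coloured by strain and treatment. Rxra, Ncor1, Rxrb, Rarg and Rara lie between 11.8 and 31.5, Nrip1 between 5.61 and 8.97, and Rarb and Rxrg below them; BMS493 lungs lie below controls for Rarb.

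With BMS493, 1 of the 8 genes was called at an adjusted p under 0.05 in B6 (Rarb) and 2 in A/J (Rarb and Nrip1), all lower. The background was 0.423% of tested genes called in B6 (0.347% lower) and 0.486% in A/J (0.423% lower). The comparison averaged over both strains called Rarb and Nrip1, both lower, against 1.37% of all genes (1.09% lower). The median log2 fold change of the 8 genes was -0.10 in B6 and -0.05 in A/J, beside 0.007 and -0.002 over all genes tested. No member was called for a difference between the strains in the size of the BMS493 effect; edgeR called 0.00579% of all genes there, 0 members had an unadjusted p under 0.05 (3.68% of all genes did), and DESeq2 called 0. Both strain-specific comparisons and the averaged one share libraries, so their calls are not independent.

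**Figure D2:**
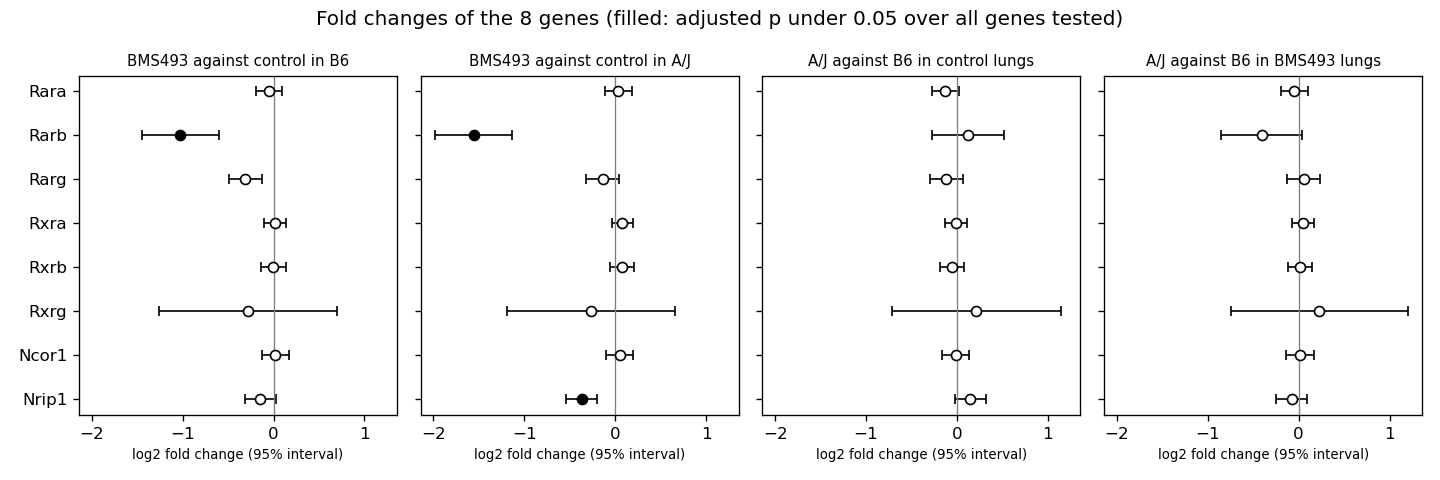
Log2 fold changes of the 8 genes with 95% intervals from edgeR, in 4 comparisons; filled circles mark an adjusted p under 0.05 over the 17276 genes tested. Rarb in both strains and Nrip1 in A/J are filled in the treatment panels, no gene is filled in the strain panels, and Rxrg has the widest intervals.

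Rarb transcripts fell with BMS493, to 0.491 times the control level in B6 and 0.340 times in A/J. In B6 control lungs the Rarb level was 7.89, 7.97, 8.16 and 9.51 CPM, and in B6 BMS493 lungs 2.68, 3.00, 6.67 and 4.42 CPM. A/J control lungs gave 8.73, 10.2, 9.52 and 7.94 CPM, and A/J BMS493 lungs 2.78, 3.08, 2.56 and 3.98 CPM. Every treated library lay below every control library of its strain; B6 BMS493 replicate 3, the library with the high Col1a1 level, came nearest to its controls. Such a separation in either direction was seen for 4.71% of all genes in B6 and 4.87% in A/J.

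The group means were 8.38 ± 0.759 and 4.19 ± 1.82 CPM in B6 and 9.09 ± 0.967 and 3.10 ± 0.624 CPM in A/J (SD, n = 4 each). The log2 fold change was -1.02 (SE 0.20, adjusted p = 0.0190) in B6, the gene ranking 35 by p. In A/J it was -1.56 (SE 0.21, adjusted p = 9.11e-05, rank 14), and averaged over both strains -1.29 (SE 0.15, adjusted p = 4.76e-06). In whole lung, fewer cells that express a gene and less of its RNA per cell cannot be told apart. These values rest on 53 to 235 counts per library.

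The B6 call for Rarb was the less stable. Fitted on the 8 B6 libraries alone, the log2 fold change was the same (-1.02) but the adjusted p was 0.144. Leaving out B6 control replicate 1, 2, 3 or 4 gave adjusted p values of 0.0548, 0.0569, 0.0520 and 0.0764, and leaving out B6 BMS493 replicate 2 gave 0.0790 at a log2 fold change of -0.89. Without B6 BMS493 replicate 3 the log2 fold change was -1.33 and the adjusted p 0.000351. In A/J the call held in all 16 fits that left out a library, A/J control replicate 4 included (-1.62, adjusted p = 0.000286).

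The Rarb effect was not shown to differ between strains: the log2 difference of the effects (A/J minus B6) was -0.53 (95% interval -1.13 to 0.07, adjusted p = 0.999). That difference was -0.23 without B6 BMS493 replicate 3 and -0.70 without B6 BMS493 replicate 1. No difference in Rarb was called between control lungs of the strains (log2 difference A/J minus B6 0.12, interval -0.27 to 0.52, adjusted p = 0.725) or between treated lungs (-0.41, interval -0.86 to 0.04, adjusted p = 0.208). Both values depended on single libraries. The control-lung value was 0.06 without A/J control replicate 2 and 0.18 without B6 control replicate 4, and with the strand-specific counts, described next, summed it was 0.24 (adjusted p = 0.212). The treated-lung value was -0.12 (adjusted p = 0.740) without B6 BMS493 replicate 3 and -0.57 (adjusted p = 0.0546) without B6 BMS493 replicate 1.

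Most reads on Rarb exons were missing from the count just used. In the GENCODE M21 annotation, 38.4% of the exonic bases of Rarb lie on exons of genes on the opposite strand, mainly Top2b, which encodes DNA topoisomerase II beta. The overlap is at the 3' end: 70.7% of the shared bases lie at or beyond the last exon of the longest Rarb transcript, and that exon is shared over its whole length (100%). The deposited count that ignores strand leaves out reads that fall on both genes, whereas the 2 strand-specific counts keep them, each for one strand. Of the reads in the 2 strand-specific Rarb counts together, 58.5% to 76.0% were missing from the count regardless of strand. The sum is 2.41 to 4.16 times the count used above, and it is an upper limit for Rarb, since in libraries without strand a read on a shared exon can come from either gene. For the other 7 genes at most 1.15% was missing. The number of missing reads was nearly the same for both neighbours, with Rarb and Top2b differing by at most 4 reads per library.

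The reads shared with Top2b were lower with BMS493 as well. They amounted to 17.7 ± 1.51 CPM in B6 control and 8.50 ± 1.27 CPM in B6 BMS493 lungs, and to 21.5 ± 2.71 and 6.81 ± 1.30 CPM in A/J (SD, n = 4 each). The log2 differences were -1.07 in B6 and -1.67 in A/J, with an exact two-sided permutation p of 0.0286 in each, the smallest that 4 against 4 can give. Reads of Top2b alone were 383 ± 13.7 and 415 ± 33.1 CPM in B6 (log2 difference 0.11, exact permutation p = 0.171) and 399.7 ± 35.4 and 399.5 ± 12.8 CPM in A/J (0.003, exact permutation p = 1). Shared reads were lower in all 4 treated libraries of each strain than in any control, while no change in reads of Top2b alone was detected.

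With the 2 strand-specific counts summed, Rarb gave log2 fold changes of -1.06 (SE 0.13, adjusted p = 0.000101) in B6 and -1.63 (SE 0.13, adjusted p = 2.05e-08) in A/J. Its summed level was 4.96 ± 0.263 CPM per kb in B6 control and 2.41 ± 0.557 in B6 BMS493 lungs. A/J lungs had 5.82 ± 0.428 and 1.88 ± 0.341 CPM per kb. In each group the highest of these Rarb values, up to 6.28 CPM per kb in A/J controls, was under the lowest Nrip1 value, 7.42 CPM per kb in A/J controls, so the order of the genes did not depend on this choice.

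**Figure D3:**
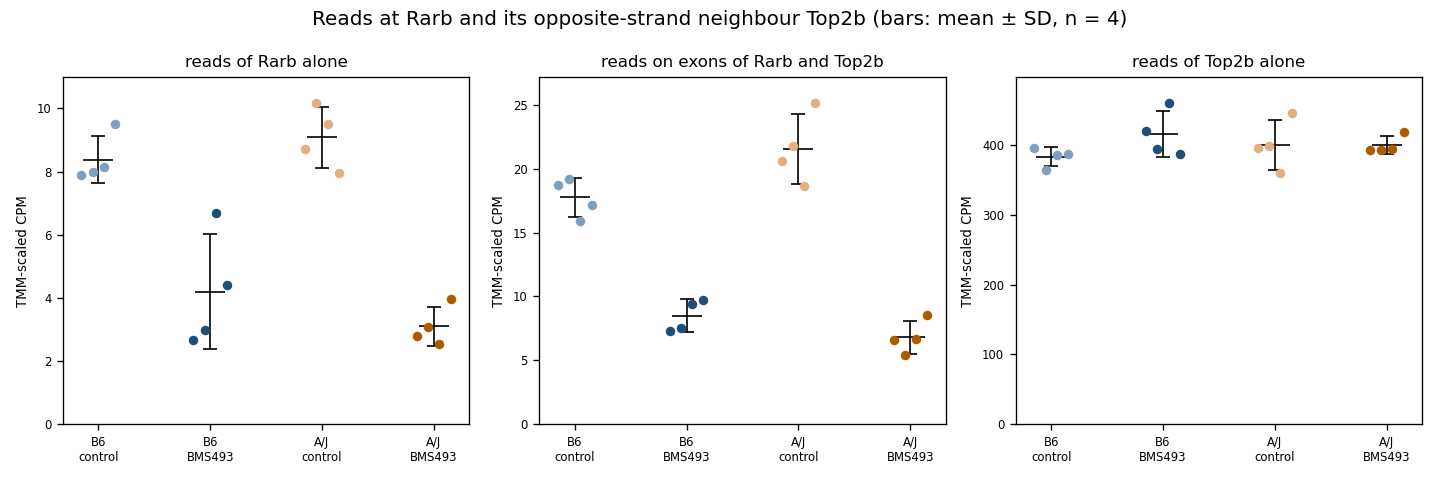
TMM-scaled CPM per library of reads that count for Rarb alone (left), reads on exons of both Rarb and Top2b (middle) and reads that count for Top2b alone (right), with mean and SD of 4 libraries per group. Treated libraries lie below their controls in the first 2 panels, and treated and control libraries overlap in the third.

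Rarg was not called with the filter on low counts used here, but its values in B6 separated. In B6 control lungs Rarg measured 75.6, 92.1, 68.4 and 75.1 CPM, and in B6 BMS493 lungs 57.1, 67.0, 67.3 and 60.0 CPM. Those ranges did not overlap: the highest treated library, at 67.3 CPM, lay just under the lowest control, at 68.4 CPM. In B6, 4.71% of all genes separated in either direction. In A/J the values were 73.8, 71.3, 80.5 and 61.5 CPM in controls and 64.0, 70.4, 58.7 and 67.7 CPM with BMS493, and they overlapped. The log2 fold change was -0.31 (SE 0.09, adjusted p = 0.178) in B6, -0.14 (SE 0.09, adjusted p = 0.942) in A/J and -0.22 (SE 0.06, adjusted p = 0.0816) averaged. Without B6 control replicate 2, the library at 92.1 CPM, the log2 fold change was -0.22 (adjusted p = 0.606) in B6 and -0.18 (adjusted p = 0.227) averaged. Of the 16 fits that left out a library, 0 called Rarg in B6 and 2 called it in the averaged comparison, at an adjusted p of 0.0491 without B6 control replicate 3 and 0.0272 without A/J control replicate 4. The B6 log2 fold change was -0.34 without either B6 BMS493 replicate 2 or B6 BMS493 replicate 3, and the A/J value ranged from -0.21 without A/J control replicate 4 to -0.08 without A/J control replicate 3. With no filter on low counts Rarg was called in B6 (-0.31, adjusted p = 0.00606) and averaged (-0.22, adjusted p = 0.00308).

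The summed level of 4 smooth muscle markers (Acta2, Myh11, Cnn1 and Actg2) separated the groups in B6 as well. It was 981 to 1040 CPM in B6 control and 789 to 961 in B6 BMS493 lungs, and 788 to 983 and 754 to 861 CPM in A/J, where the groups overlapped. Of the 4 genes, 1 was called in B6 (Actg2), 0 in A/J and 3 in the averaged comparison, all lower, beside 0.423%, 0.486% and 1.37% of all genes. All 4 had counts in every library. Neural markers summed to 12.7 to 17.7 CPM in B6 control and 9.53 to 11.7 CPM in B6 BMS493 lungs, and to 16.4 to 19.9 and 12.8 to 17.5 CPM in A/J, with 1 of 7 called, lower, in the averaged comparison. Of the 5 mesenchyme markers 1 was called, Foxf1, which encodes a transcription factor of lung mesenchyme, lower in B6 (log2 fold change -0.40, adjusted p = 0.0233) and averaged (-0.33, adjusted p = 0.00235). Mesothelium markers (4 genes, led by Upk3b) summed to 77.9 to 83.7 CPM in B6 control and 52.7 to 84.0 CPM in B6 BMS493 lungs, and to 89.8 to 104.9 and 74.1 to 85.3 CPM in A/J, where the groups did not overlap; 0 of 4 were called in either strain and 1 in the averaged comparison (Upk3b, lower). All 4 had counts in every library. The part of these cell types in the Rarg, Rarb or Nrip1 values was not tested.

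Rara, the most widely expressed RAR, showed no called change. It measured 66.0 ± 1.05 and 63.8 ± 2.20 CPM in B6 control and BMS493 lungs and 60.3 ± 6.27 and 61.8 ± 4.73 CPM in A/J (SD, n = 4 each). The log2 fold changes were -0.05 (95% interval -0.20 to 0.10) in B6 and 0.03 (-0.11 to 0.18) in A/J.

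The RXRs, which also pair with vitamin D, thyroid hormone, PPAR and liver X receptors, showed no called change. Rxra had 158 ± 4.22 and 160.1 ± 7.29 CPM in B6 control and BMS493 lungs and 157 ± 12.3 and 166 ± 6.55 CPM in A/J, with log2 fold changes of 0.02 (interval -0.10 to 0.14) and 0.08 (-0.04 to 0.20). Rxrb, at 80.6 ± 4.34 and 80.6 ± 4.56 CPM in B6 and 77.4 ± 6.39 and 81.5 ± 1.74 CPM in A/J, gave intervals of -0.13 to 0.13 and -0.06 to 0.20. For these 2 genes the 95% intervals reach at most 0.20 in size on the log2 scale in either strain. Rxrg rested on 4 to 23 counts per library, 0.254 to 1.30 CPM. Its intervals were -1.26 to 0.69 in B6 and -1.19 to 0.66 in A/J. Both include a log2 fold change as large as that of Rarb in B6, so a change of that size was not excluded.

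As a family, the RARs summed to 35.0 ± 2.27 CPM per kb in B6 control and 30.2 ± 1.14 in B6 BMS493 lungs, and to 32.4 ± 3.14 and 30.1 ± 2.26 in A/J (SD, n = 4 each). Rarg and Rara made up most of it: Rarg had 52.1% and 48.8% of the sum in B6 control and BMS493 lungs and Rara 43.4% and 48.5%. The share of Rarb, on counts that leave out its shared reads, was 4.57% in control and 2.63% in treated B6 lungs, against 5.34% and 1.96% in A/J. Per kb of Rarb exon not shared with another gene, it was 7.20% and 4.19% in B6 and 8.38% and 3.13% in A/J. With the strand-specific Rarb counts summed, the upper limit, it was 12.9% and 7.57% in B6 and 16.1% and 6.02% in A/J. RXR transcripts outnumbered RAR transcripts per length in all groups, by a ratio of 1.42 ± 0.0727 in B6 control, 1.65 ± 0.0750 in B6 BMS493, 1.50 ± 0.0764 in A/J control and 1.71 ± 0.121 in A/J BMS493 lungs. These sums and ratios are given as descriptions.

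**Figure D4:**
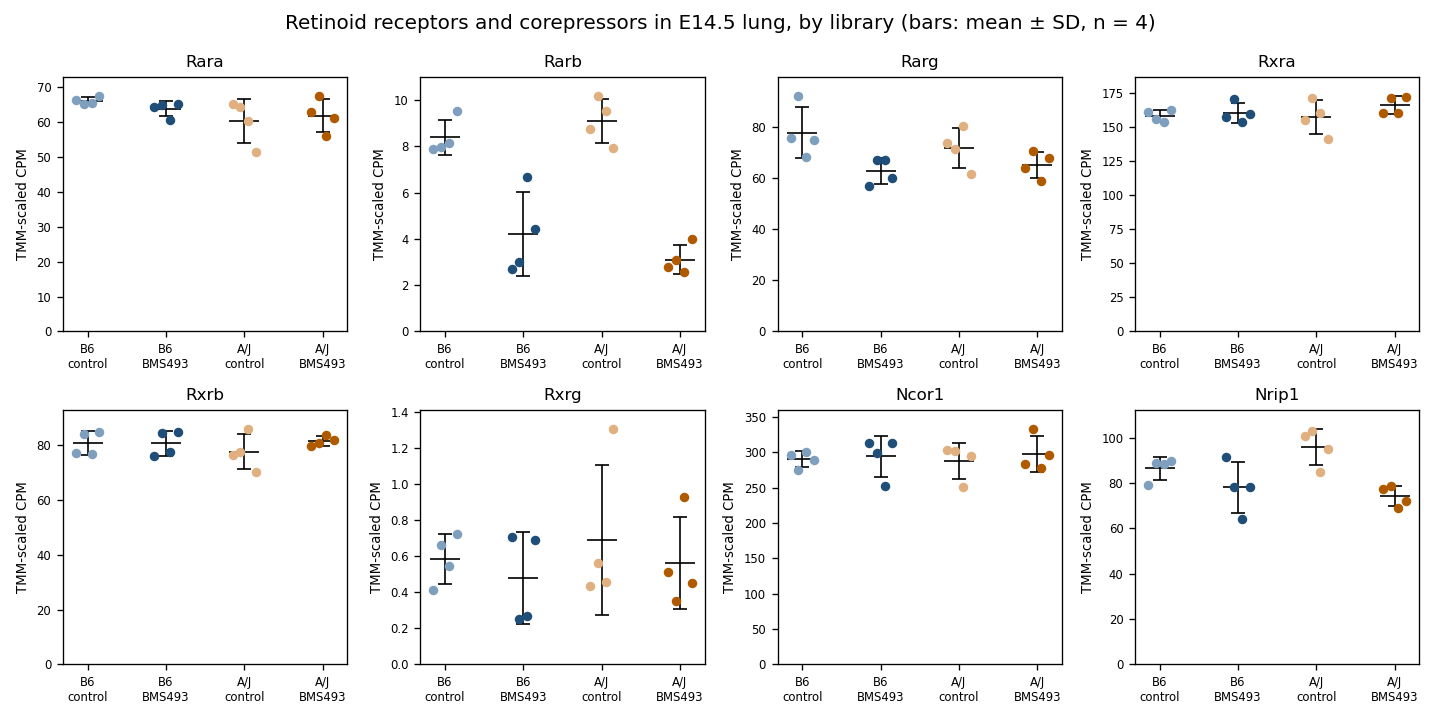
TMM-scaled CPM of each of the 8 genes in the 16 libraries (1 point each), by strain and treatment, with mean and SD of 4 libraries; every vertical axis starts at 0. Rarb separates treated from control libraries in both strains, Rarg in B6 and Nrip1 in A/J, and in the other panels the groups overlap.

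Nrip1 encodes RIP140, a corepressor that binds nuclear receptors when they carry an agonist and whose gene is itself known to respond to retinoic acid. It fell with BMS493 in A/J, to 0.774 times the control level. A/J control lungs had 100.6, 102.8, 85.0 and 94.8 CPM and A/J BMS493 lungs 77.2, 78.6, 68.9 and 71.9 CPM, without overlap. In A/J, 4.87% of all genes separated in either direction. In B6 the controls had 78.9, 88.9, 88.2 and 89.6 CPM and the treated lungs 91.4, 78.3, 64.3 and 78.0 CPM, with the first treated library above every control. The log2 fold change was -0.37 (SE 0.08, adjusted p = 0.0330) in A/J, -0.15 (SE 0.08, adjusted p = 0.625) in B6 and -0.26 (SE 0.06, adjusted p = 0.0195) averaged.

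The Nrip1 call was close to the threshold. In A/J it was lost on one strand-specific count (-0.32, adjusted p = 0.0654) and in 7 of 16 fits without a library: A/J control replicates 1, 2 and 4 (adjusted p = 0.143, 0.172 and 0.0619, the last at a log2 fold change of -0.38), A/J BMS493 replicates 1, 3 and 4 (0.0665, 0.172 and 0.111) and B6 control replicate 4 (0.05002). The averaged call was lost without B6 control replicate 2 or 4 (0.0528 and 0.0513), A/J control replicate 1 or 2 (0.0518 and 0.0609) or A/J BMS493 replicate 3 (0.0577). B6 BMS493 replicate 3, the lowest treated B6 library for Nrip1, moved the B6 value from -0.15 to -0.07 when left out, and B6 BMS493 replicate 1, the highest, moved it to -0.23 (adjusted p = 0.202). Without B6 BMS493 replicate 2 it was -0.15. The difference between strains in the effect was -0.22 (95% interval -0.46 to 0.02, adjusted p = 0.999), so a strain difference was not shown; it was -0.14 without B6 BMS493 replicate 1 and -0.30 without B6 BMS493 replicate 3.

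Ncor1, the scaffold that unliganded RARs bind to recruit Hdac3, had 290.4 ± 10.97 and 294 ± 28.9 CPM in B6 control and BMS493 lungs and 288 ± 24.9 and 298 ± 24.9 CPM in A/J (SD, n = 4 each). Its log2 fold changes were 0.02 (interval -0.13 to 0.17) and 0.05 (-0.10 to 0.20). Without one of the 3 libraries that stood apart in marker levels, the log2 fold changes in the same strain lay between -0.06 and 0.08 for Rara, Rxra, Rxrb and Ncor1 and between -0.12 and 0.21 for Rxrg, and none was called.

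Between the strains no member was called, in control lungs (background 16.9% of genes called) or in BMS493 lungs (background 20%). At an unadjusted p under 0.05 the member count was 0 too, beside 29% and 31.4% of all genes, and DESeq2 called 0. All 8 genes overlapped between the strains in each treatment, whereas 24.3% and 19.5% of all genes separated. The control-lung values nearest to a difference were Rara, at -0.13 (A/J minus B6, adjusted p = 0.238; -0.06 without A/J control replicate 4 and -0.07 on the first strand column), and Nrip1, at 0.15 (adjusted p = 0.239).

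For each member the genes with the most similar profile over the 16 libraries were found by Pearson r of log2 CPM, after taking out the mean of each strain. These correlations describe the libraries and share their depth, treatment and dissection. Closest to Rarb was Dhrs3 (r = 0.956), the retinaldehyde reductase and a known target of retinoic acid, then Vsir (0.949), Gas1 (0.948), Zfp827 (0.941) and Arrb1 (0.933). Dhrs3 had 17.7 ± 1.19 CPM in B6 control and 7.19 ± 2.14 in B6 BMS493 lungs, and 17.6 ± 2.27 and 4.204 ± 0.631 CPM in A/J. Among the profiles most like that of Nrip1 were those of Etv6 (0.915) and Igfbp5 (0.893). The profile nearest Rarg was that of Acta2 (0.863), the smooth muscle actin gene, followed by Stmn2 (0.861) and Hey2 (0.850). Ncor1 resembled Bptf (0.973), a chromatin remodelling subunit, Prr14l (0.964) and Ago2 (0.960). For Rara, Rxra, Rxrb and Rxrg the highest r was 0.875 (Sh3pxd2b), 0.854 (Prelp), 0.857 (Dctn2) and 0.882 (Ssb).

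Other genes of the same machinery were counted on lists put together with earlier results of these data known. Their counts of calls are therefore not independent of these data. Of 13 other corepressor complex genes, among them Hdac3, 0 were called with BMS493 in either strain by edgeR or DESeq2 and 0 had an unadjusted p under 0.05, and their median log2 fold changes were 0.03 in B6 and -0.004 in A/J. Of 13 coactivators, which receptors bind when retinoic acid is present, 1 was called lower, in the averaged comparison (1.09% of all genes were): Ncoa3, at 73.3 ± 5.40 and 61.9 ± 8.81 CPM in B6 control and BMS493 lungs and 74.0 ± 4.98 and 60.3 ± 2.95 CPM in A/J (log2 fold change -0.27, SE 0.06, adjusted p = 0.0114). None of 10 tested RXR partner receptors and none of 9 tested orphan receptors was called with BMS493 by edgeR or DESeq2; at an unadjusted p under 0.05 there were 2 partners in B6 and 1 in A/J, and 1 orphan receptor in each, beside 9.11% of all genes in B6 and 6.23% in A/J. The lists of 13 and 11 genes had 3 and 2 members with too few counts.

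Of 21 genes that make, clear, import or bind retinoids, 16 were tested, and 4 were called lower in B6, 3 in A/J and 0 higher in either. The share of all genes called lower was 0.347% in B6 and 0.423% in A/J. Cyp26b1, which clears retinoic acid, had 18.2 ± 5.14 and 1.47 ± 0.667 CPM in B6 and 19.9 ± 5.73 and 1.05 ± 0.276 CPM in A/J (log2 fold change -3.68, SE 0.28, adjusted p = 2.51e-06 and -4.24, SE 0.29, adjusted p = 8.22e-08). Lrat, which esterifies retinol, had 1.38 ± 0.410 and 0.248 ± 0.0902 CPM in B6 and 16.5 ± 1.87 and 0.355 ± 0.181 CPM in A/J. Dhrs3 was called in both strains, and Stra6, the retinol transporter, in B6 alone and in the averaged comparison; the log2 fold change of Stra6 was -1.15 in B6 and -0.76 in A/J, and that difference was not called (adjusted p = 0.999). The log2 fold changes of Dhrs3 were -1.31 (SE 0.16) in B6 and -2.07 (SE 0.17) in A/J, beside -1.02 (SE 0.20) and -1.56 (SE 0.21) for Rarb; differences in effect between genes were not tested.

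Between the strains, the calls in control lungs were 1 of 13 other corepressor genes, 1 of 13 coactivators, 2 of 10 partner receptors, 2 of 9 orphan receptors and 5 of 16 retinoid genes, beside 16.9% of all genes. In BMS493 lungs they were 2, 4, 4, 1 and 8 of the same numbers, beside 20% of all genes. In control lungs Hdac1 was lower in A/J, with 210.3 ± 3.45 CPM in B6 control and 173 ± 5.47 in A/J control lungs (log2 difference -0.28, SE 0.05, adjusted p = 0.00036). Ncoa1 was lower (-0.41, SE 0.09, adjusted p = 0.00182) and so was Nr1h3, the liver X receptor alpha (-0.69, SE 0.14, adjusted p = 0.000772). Nr4a2, an orphan receptor that pairs with RXR, was lower (-0.61, adjusted p = 0.00284), as were Nr2f2 (-0.19, adjusted p = 0.0213) and Rorb (-0.75, adjusted p = 0.0472). Of the retinoid genes 5 were higher in A/J control lungs: Rdh10, Lrat, Stra6, Crabp2 and Fabp5. Lrat had the largest of these differences, 3.57 on the log2 scale (SE 0.21, adjusted p = 1.67e-12).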

How the data were processed

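Lung RNA of 16 libraries was analysed, 4 in each of 4 groups of strain and treatment. Libraries were made from poly(A) RNA, per the labels' protocols. FastQC, cutadapt, STAR and the genome build GRCm39 are named in the submitters' processing notes; the aligner's version and the annotation are not given in the sources used here. The deposited values are raw counts of reads per gene, in 3 columns per library (regardless of strand and for each strand), and the authors applied no normalization to them, per the layout of the files. The 2 strand columns held near equal shares (51.0% to 52.0% in the first), so reads were not stranded. Lines that are not genes held 23.1% to 28.3% of fragments and were left out. Counts regardless of strand were used for the main results.

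Gene symbols and exon lengths came from GENCODE M21, on an older build, matched by gene identifier for 51884 of 57180 genes, holding 98.9% of the counts; its exon positions were used for exon lengths and for overlaps between genes, and none is printed. Promoters are from RefSeq, GRCm38.p6. Genes were filtered with filterByExpr and scaled by TMM, and edgeR 4.0.16 (R 4.3.3) fitted its robust quasi-likelihood model to all 16 libraries with 1 coefficient per group and 12 residual degrees of freedom. The 6 contrasts were tested, with Benjamini-Hochberg adjustment over 17276 genes at 0.05. CPM are TMM-scaled, and CPM per kb divides by the union of annotated exons. Single values were compared by exact permutation over samples. Alternatives were RLE scaling, DESeq2 1.42.0, no filter or a stricter one, only the 8 libraries compared, a replicate block, a term for library set, each strand column and their sum, and leaving out each library. Reads shared with Top2b, Rarb length without shared bases, the RAR sum with either, DR5 genes without Rarb and marker sums without the most abundant gene were added after seeing the data.

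The 8 genes and all lists were chosen with earlier results of these data known. The named genes are the 8 members whatever their result and the 3 protein-coding genes (5 for Rarb) most like each member, of which 1 is not reported here; for Rara, Rxra, Rxrb and Rxrg the most similar gene is given. Values of listed genes are given only for those called in at least 1 contrast with a mean CPM of at least 1 (at most 6 a list and contrast), and strain calls in BMS493 lungs are given as counts; Hdac3, Tnfsf13b, Top2b and marker genes are named beyond that rule. Same-numbered samples had a median correlation of -0.009 in their deviations, beside 0.005 for other pairs, so the numbers were not taken to pair them.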

Additional observations from a re-analysis of the deposited data

Results flagged for a closer look

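In 3 of 32 gene and group combinations, 1 of 4 libraries stood far from the other 3, with a gap to its nearest neighbour above the 95% limit of Dixon's test; chance gives about 1 in 20. Rarb in B6 control lungs had 9.51 CPM in replicate 4 against 7.89 to 8.16 in the others, a gap of 0.833 of the range. Rxrg in A/J control lungs had 1.30 CPM in replicate 4 (23 counts) against 0.434 to 0.563, a gap of 0.852. Nrip1 in B6 control lungs had 78.9 CPM in replicate 1 against 88.2 to 89.6, a gap of 0.869.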

How the results depend on the processing

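The 2 Rarb calls kept their direction in every alternative run, and no member was called for a strain comparison or an interaction in any. Members called in B6 went from 1 to 2 (Rarb and Rarg) with no filter on low counts and went to 0 on the 8 B6 libraries alone; in A/J they went from 2 to 1 (Rarb) on one strand column. Leaving out 1 library at a time gave 0 to 1 members called in B6, 1 to 2 in A/J and 1 to 3 averaged. With a replicate block the called members were unchanged: Rarb gave -1.05 (adjusted p = 0.0123) in B6 and -1.56 in A/J, and Nrip1 -0.37 (adjusted p = 0.0133) in A/J. Same-numbered samples had correlations of -0.147 to 0.148 in their deviations, 3 of 24 above 0.1. Pairs with other numbers had -0.138 to 0.177, 1 of 72 above 0.1. Signs changed only for small or noisy values, and the cause was not tested. Rxrb in B6 was 0.0027 with RLE scaling, 0.0031 with DESeq2 and 0.046 on the first strand column, where Rara averaged was 0.0009, Rxra between control strains 0.0062 and Ncor1 between control strains 0.0037; Rxra in B6 was -0.012 on the second strand column. Leaving out 1 library changed the sign of 16 of 48 member log2 fold changes, none above 0.27 in size. Ncor1 spanned -0.056 to 0.0482 between treated strains, -0.0389 to 0.0483 between control strains, -0.0131 to 0.0806 for BMS493 in A/J, -0.0113 to 0.0838 for BMS493 in B6, -0.0351 to 0.0614 for the difference between strain effects. Nrip1 spanned -0.16 to 0.0111 between treated strains. Rara spanned -0.042 to 0.0153 for the averaged effect, -0.035 to 0.0796 for BMS493 in A/J. Rxra spanned -0.054 to 0.0394 between control strains, -0.0119 to 0.0368 for BMS493 in B6. Rxrb spanned -0.0101 to 0.0396 between treated strains, -0.0254 to 0.0277 for BMS493 in B6. Rxrg spanned -0.13 to 0.49 between treated strains, -0.26 to 0.38 between control strains, -0.62 to 0.21 for BMS493 in A/J, -0.34 to 0.49 for the difference between strain effects. Rxrg had at most 23 counts per library and a coefficient of variation between libraries beyond counting error, as edgeR estimates it, of 0.329, against a median of 0.106 over all genes. Calls over all genes moved with the method: with BMS493 in B6, 73 by edgeR, 162 by DESeq2, 260 with no filter and 27 on the 8 libraries alone, with 84, 158, 178 and 133 in A/J. Averaged, 237 were called by edgeR, 396 by DESeq2 and 487 with no filter. Leaving out 1 library gave 27 (without B6 control replicate 1) to 201 (without B6 BMS493 replicate 1) in B6, 52 (without A/J BMS493 replicate 3) to 121 (without B6 BMS493 replicate 3) in A/J and 165 (without B6 control replicate 2) to 371 (without B6 BMS493 replicate 1) averaged.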
